A study of Mus musculus with 2 samples.

Results

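Dnmt1, Uhrf1, Dnmt3a, Dnmt3b, Tet1, Tet2, Tet3, Ezh1 and Ezh2 were followed in RNA sequencing of Th1 cells. These 9 genes of the 24421 listed were chosen by symbol and function, because they make, copy or remove methyl groups on DNA or on histone H3 lysine 27. All 9 were found. Th1 cells are helper T cells that secrete IFNγ. The study asked how Chi3l1, a chitinase-like protein, affects their differentiation. Naive CD4 T cells of C57BL/6J mice, 6 to 8 weeks old by the study's methods, were activated through CD3 and CD28 and skewed in culture with IL-12, IL-2 and an antibody to IL-4. The WT Th1 cells were Chi3l1+/+ and the Chi3l1 KO Th1 cells were Chi3l1-/-, which is a loss in every cell of the mouse and not in T cells alone. There was 1 library of each (n = 1), so no difference below has a replicate check, no test between genotypes was possible, and whether cells of several mice were pooled is not stated.

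CpG methylation is a lasting mark of silent DNA that has to be copied each time a cell divides. Dnmt1 copies it onto the new strand, and Uhrf1 brings Dnmt1 to half-methylated CpG sites by binding them and by ubiquitylating histone H3. Dnmt3a and Dnmt3b place methyl groups on unmethylated sites, and the Tet proteins oxidise 5-methylcytosine, which leads to its loss. Ezh2 and Ezh1 are the alternative catalytic subunits of Polycomb repressive complex 2 (PRC2), which methylates histone H3 lysine 27 at silenced genes. In helper T cells these marks are known for holding the cytokine genes of other lineages shut, and demethylation of Ifng is a known step of Th1 differentiation.

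The targeted gene was checked first. Chi3l1, listed as Chil1, had 1 read in the WT library and 103 reads in the library labelled Chi3l1 KO Th1, with log2 values of 0.94 and 6.66. This goes against the label, and 1 value per gene cannot show which exons the reads came from. Every difference below is therefore the value of the library labelled Chi3l1 KO Th1 minus that of the WT library, and its direction rests on a label that this gene did not bear out. The deposited values are log2 of a normalized count plus 1, and read counts rebuilt from them summed to 70711509 in WT and 63056678 in the labelled KO library. All 7 Th1 markers were present, among them Cd4 at 14.32 and 13.94, Tbx21 (T-bet) at 13.98 and 13.71, and Ifng at 11.72 and 13.04, although Cxcr3 was low at 8.05 and 6.82. The 4 naive T cell markers were high in both libraries, for instance Ccr7 at 16.73 and 16.56. The summed normalized counts of markers of other cells differed between the libraries. The 3 B cell markers summed to 587 in WT and 1247 in the labelled KO library, the 4 myeloid markers to 675 and 550, the 4 listed neutrophil markers to 58 and 5, the 2 NK cell markers to 16 and 14, and the 2 CD8 markers to 812 and 807. Of these markers Ncr1 was at 0 in WT, S100a8, S100a9 and Elane were at 0 in the labelled KO library, and none was at 0 in both. Their part in the results was not tested, and in bulk RNA fewer cells of a type and less RNA per cell cannot be told apart.

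Dnmt1, Uhrf1 and Ezh2 are genes of dividing cells. A window at a listed start of each is shown because an E2F-type word lay in it. Such words are the kind of site bound by the E2F factors that drive S phase genes. The windows run from 250 bases before to 50 bases after a RefSeq transcription start (GRCm38.p6) and are written 5′ to 3′ along the gene's strand. Capitals mark TTTCCCGC, TTTGGCGC, TTTCGCGC or TTTGCCGC on either strand, the only words searched. Dnmt1 is shown from start number 3 of its listed starts, at chr9:20952574-20952873 on the minus strand, and Uhrf1 from start number 2, at chr17:56304063-56304362 on the plus strand. Both windows lie wholly downstream of the earlier listed starts of their gene, so the positions below hold for the start named alone. Values per gene do not show which start was used in these cells. Ezh2 has 1 listed start, at chr6:47594981-47595280 on the minus strand.
Dnmt1: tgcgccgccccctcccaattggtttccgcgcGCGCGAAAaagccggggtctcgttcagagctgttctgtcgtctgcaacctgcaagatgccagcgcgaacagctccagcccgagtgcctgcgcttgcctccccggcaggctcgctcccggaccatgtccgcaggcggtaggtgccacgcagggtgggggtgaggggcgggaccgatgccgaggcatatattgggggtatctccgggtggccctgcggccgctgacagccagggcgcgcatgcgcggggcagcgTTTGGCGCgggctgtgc
Uhrf1: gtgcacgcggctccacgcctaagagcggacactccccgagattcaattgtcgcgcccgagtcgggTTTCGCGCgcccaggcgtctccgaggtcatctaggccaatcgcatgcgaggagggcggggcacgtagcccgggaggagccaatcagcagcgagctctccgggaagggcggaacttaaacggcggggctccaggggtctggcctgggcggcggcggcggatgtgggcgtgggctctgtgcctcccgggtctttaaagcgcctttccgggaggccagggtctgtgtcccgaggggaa
Ezh2: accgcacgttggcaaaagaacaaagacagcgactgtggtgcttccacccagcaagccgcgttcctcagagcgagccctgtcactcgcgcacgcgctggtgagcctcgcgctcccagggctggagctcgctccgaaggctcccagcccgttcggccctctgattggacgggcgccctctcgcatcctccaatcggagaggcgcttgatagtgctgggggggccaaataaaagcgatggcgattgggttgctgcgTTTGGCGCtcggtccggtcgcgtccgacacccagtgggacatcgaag
With the start site as 0, the words began at -219 and 33 in Dnmt1, at -185 in Uhrf1 and at 3 in Ezh2. The other windows of Dnmt1 and Uhrf1 and those of the other 6 genes held none of these words, which says nothing about the factors. Such a word was in 2.26% of 32851 promoter windows and in 4.32% of 8759 windows of well expressed genes. The printed windows held 33 CpG dinucleotides in Dnmt1, 33 in Uhrf1 and 31 in Ezh2 against a median of 7 over all windows and 21 over those of well expressed genes. However, the printed windows were picked for words that all contain CpG. The other listed starts of Dnmt1 had 2 and 12 and that of Uhrf1 had 12, while Tet2 had 57. A word is a match of letters and not a shown binding site.

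All 9 genes were well expressed, meaning that neither library had a log2 value under 8, as were 8886 genes in all. Levels of the 9 genes were compared as normalized counts per kb of the longest transcript. In the other lists below, the most abundant gene is the one with the highest log2 value, which is not corrected for length. The maintenance genes stood far above the rest. Dnmt1 was at 16800 per kb in WT and 14200 in the labelled KO library, and Uhrf1 at 13700 and 9970. Next came Dnmt3b at 2110 and 1480, Ezh2 at 1220 and 1250, and Dnmt3a at 1140 and 956. Tet3 followed at 518 and 446, then Ezh1 at 270 and 324, Tet2 at 139 and 146, and Tet1 at 54.5 and 49.6. The order was the same in both libraries, with Dnmt3a and Ezh2 close together in WT. Per kb of coding sequence Dnmt3a (4040 in WT) stood above Dnmt3b (3530), and Uhrf1 (20900) above Dnmt1 (20300) in WT but not in the labelled KO library (15200 and 17100). Dnmt3a then also stood above Ezh2 (1520 in WT). Uhrf1 against Dnmt1, and Dnmt3a against Dnmt3b and Ezh2, therefore have no order that holds for both lengths.

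**Figure D1:**
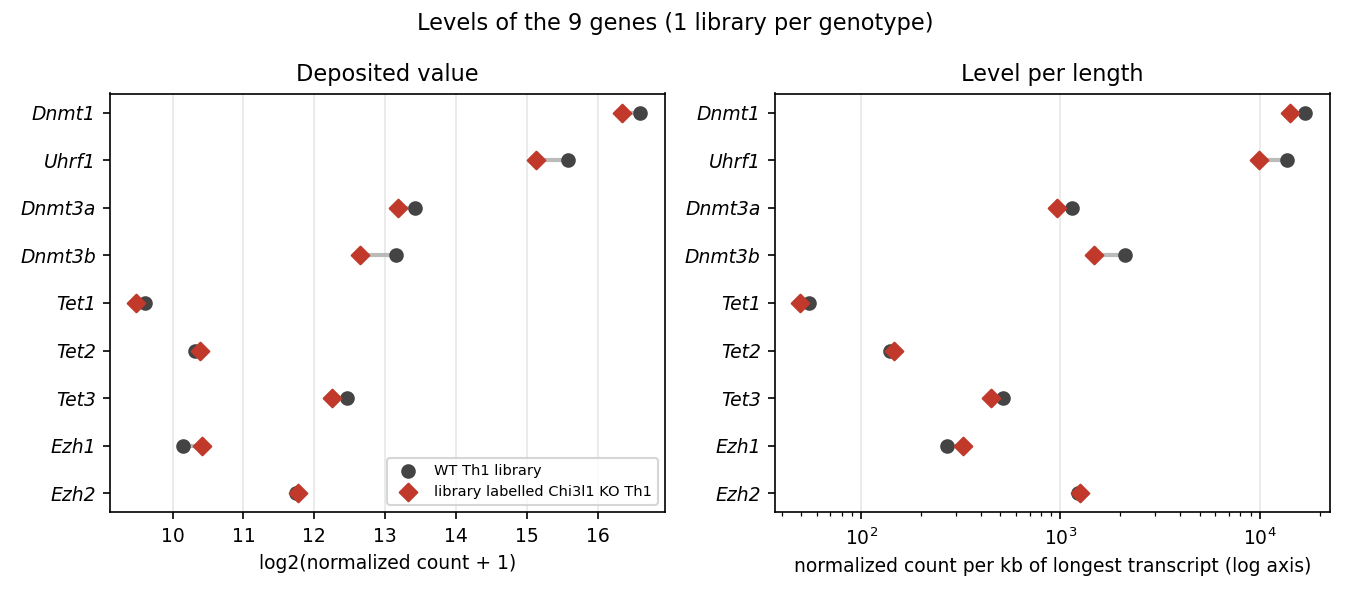
Levels of the 9 genes in the WT Th1 library (dark circles) and the library labelled Chi3l1 KO Th1 (red diamonds), 1 library each, as the deposited log2(normalized count + 1) on the left and as normalized counts per kb of longest transcript on a log axis on the right. Dnmt1 and Uhrf1 lie furthest right at 9970 per kb or more and Tet1 furthest left at 54.5 or less. The shifts between libraries are small beside this range, but not beside the distance between close neighbours. Dnmt3a, for instance, was at 1140 per kb in WT and 956 in the labelled KO library, and Ezh2 at 1220 in WT.

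The 9 genes differed little between the libraries. None was at or past 2-fold, which 1.2% of well expressed genes were in either direction and 10.5% of all genes listed. Among the 15541 genes that reached a log2 value of 1 in either library, 7.38% were 2-fold higher and 9.12% were 2-fold lower in the labelled KO library. At 1.5-fold the count of the 9 stayed at 0, against 10.2% of well expressed genes. At a log2 difference of at least 0.32 in size, a smaller bound, Uhrf1 and Dnmt3b were lower and none was higher, against 19.6% of well expressed genes lower and 16.3% higher. As deposited, 6 of the 9 were lower and 3 were higher. Their median difference was -0.21 on the log2 scale, beside -0.01 over the 8886 well expressed genes, whose differences had an SD of 0.37 and of which 51.2% were lower. Every one of the 9 lay inside the middle 90% of those genes, which ran from -0.63 to 0.54.

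Scaling moved these values. Scaling to Actb raised the median of well expressed genes by 0.12 and scaling to the summed value by 0.17, so differences under them are read against that shift. Under these scalings the 2-fold calls over all genes leaned the other way, with 1475 higher and 1184 lower for Actb and 1605 and 1136 for the summed value, beside 1147 and 1418 as deposited. The differences also followed the GC content of the transcript. Over 8579 well expressed genes with a transcript the Spearman rho of difference and GC content was -0.53, a description across genes of the same 2 libraries. Subtracting the median in 20 bins of GC content gives the values called GC-corrected below. Under these and the other alternatives tried, 6 of the 9 genes kept their direction (Dnmt1, Uhrf1, Dnmt3a, Dnmt3b and Tet3 lower, Ezh1 higher), and Tet1, Tet2 and Ezh2 each changed sign under 1 of them. For Tet1 that was scaling to the summed value, where its 0.03 still lay below the median of 0.16 of well expressed genes.

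**Figure D2:**
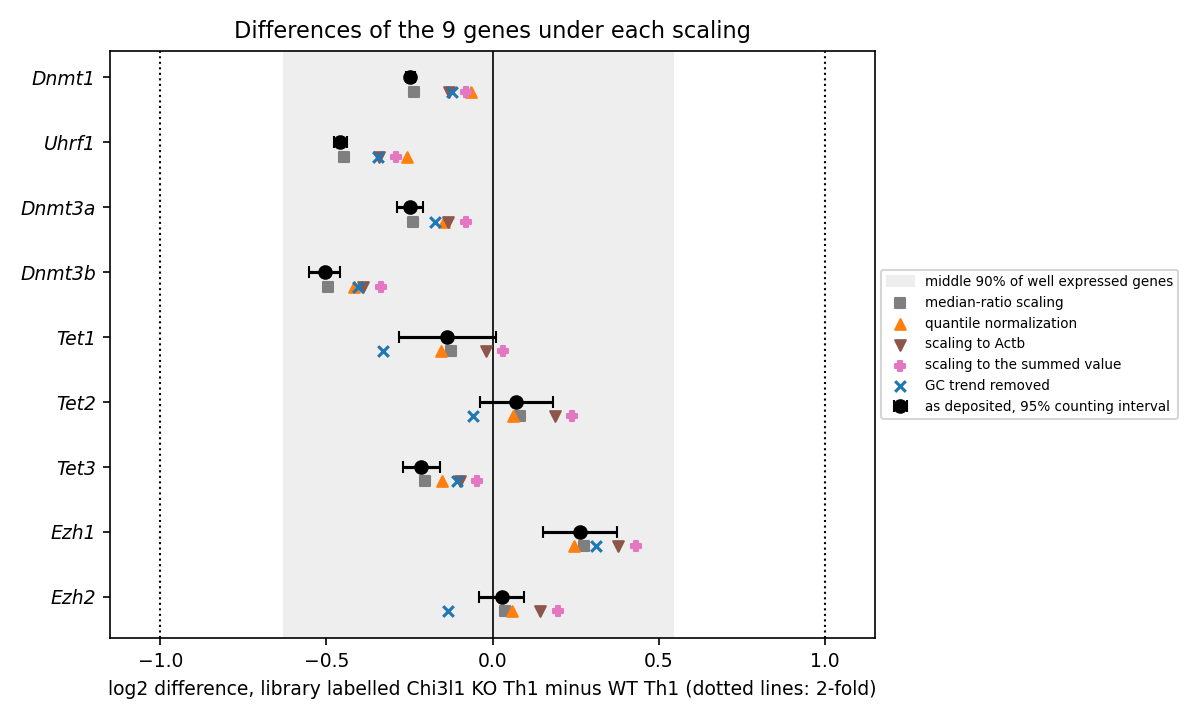
Log2 difference of each of the 9 genes, library labelled Chi3l1 KO Th1 minus WT Th1, as deposited (black, with the exact binomial 95% interval of read sampling) and under 5 other scalings. The grey band holds the middle 90% of well expressed genes and the dotted lines mark 2-fold. All points lie inside the band, Dnmt3b furthest left at -0.51 and Ezh1 furthest right at 0.26 as deposited.

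The maintenance pair was lower in the labelled KO library, and Uhrf1 by more than Dnmt1. Dnmt1 (chr9:20907209-20959888, minus strand, GRCm38) had a log2 value of 16.59 in WT and 16.34 in the labelled KO library, from 102049 and 86169 reads. The difference was -0.25, with an exact binomial (Clopper-Pearson) 95% interval of -0.26 to -0.23. That interval, like every one below, covers counting error only, not mice or cultures. Of well expressed genes, 25.7% had a difference as low, so Dnmt1 sat well within the common range. Its difference was -0.12 when GC-corrected and -0.06 under quantile normalization.

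Uhrf1 (chr17:56303321-56323486, plus strand) was at 15.58 and 15.13, from 50742 and 37016 reads. Its difference of -0.46 (-0.48 to -0.44) makes the normalized count of the labelled KO library 0.728 times that of WT, and 11.1% of well expressed genes were as low. When GC-corrected it was -0.34. Within each library the normalized count of Uhrf1 was 0.497 times that of Dnmt1 in WT and 0.43 times in the labelled KO library. The log2 ratio was lower by 0.21, a change of -0.21 with a normal-approximation 95% counting interval of -0.23 to -0.19, and -0.22 when GC-corrected. A ratio within a library does not depend on how the 2 libraries were scaled by a constant, and it shows unequal change and not which of the genes moved. The paralogue Uhrf2, which does not replace Uhrf1 in maintenance, differed the other way at 10.02 and 10.37. Uhrf1 exceeded Uhrf2 47.4 times in WT and 27 times in the labelled KO library by normalized count, a change of -0.81 in the log2 ratio (-0.93 to -0.69).

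Of the de novo pair, Dnmt3b was the lower. Dnmt3b (chr2:153649450-153687730, plus strand) had log2 values of 13.15 in WT and 12.65 in the labelled KO library, from 9402 and 6639 reads. The difference of -0.51 (-0.55 to -0.46) was the lowest of the 9, a normalized count 0.705 times that of WT, with 9.16% of well expressed genes as low. It was -0.41 when GC-corrected and between -0.49 and -0.34 under the other scalings. Dnmt3a (chr12:3806007-3914443, plus strand), the de novo enzyme best known for restraining effector T cell genes, was at 13.43 and 13.18, from 11369 and 9586 reads. Its difference of -0.25 (-0.29 to -0.21) was close to that of Dnmt1, and 25.5% of well expressed genes were as low.

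The Dnmt3b to Dnmt3a ratio of normalized counts was 0.827 in WT and 0.693 in the labelled KO library, a change of -0.26 in log2 (-0.32 to -0.20) and -0.23 when GC-corrected. The Dnmt3a to Dnmt1 ratio was 0.111 in each library. Its change of -0.002 had a counting interval of -0.04 to 0.04, so any change in it beyond that range was not seen at this depth. The differences were thus larger for Uhrf1 and Dnmt3b than for their partners Dnmt1 and Dnmt3a, whose GC contents were alike (53.7% and 53.1% against 54.0% and 51.9%). Per kb of transcript, Dnmt1 made up 83.8% of the summed Dnmt level in WT and 85.3% in the labelled KO library, Dnmt3b 10.5% and 8.93%, and Dnmt3a 5.66% and 5.75%. Per kb of coding sequence the shares were 72.9% and 74.4% for Dnmt1, 12.6% and 10.8% for Dnmt3b, and 14.5% and 14.8% for Dnmt3a. The order of Dnmt3a and Dnmt3b thus depends on the length used.

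The Tet genes, which act against the Dnmt genes, had no common direction as deposited. Tet3 (chr6:83362373-83459084, minus strand), the most abundant, was at 12.46 in WT and 12.25 in the labelled KO library, from 5832 and 5038 reads. Its difference of -0.21 (-0.27 to -0.16) was the median of the 9 and was -0.11 when GC-corrected. Tet2 (chr3:133463679-133545139, minus strand), a known contributor to cytokine expression in Th1 cells, was at 10.31 and 10.39, from 1315 and 1385 reads. Its difference of 0.07 had an interval of -0.04 to 0.18 that includes 0, and it was -0.06 when GC-corrected. Tet1 (chr10:62804570-62908996, minus strand) was at 9.62 and 9.48, from 809 and 738 reads. Its difference of -0.14 (-0.28 to 0.01) also included 0, and it ran from 0.03 under scaling to the summed value to -0.33 when GC-corrected. No direction can be given for Tet1 or Tet2 at this depth.

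Tet3 held 72.8% of the summed Tet level per kb in WT and 69.6% in the labelled KO library, Tet2 19.5% and 22.7%, and Tet1 7.67% and 7.73%. The Tet2 to Tet3 ratio of normalized counts went from 0.225 to 0.275, a change of 0.29 in log2 (0.16 to 0.41) that was 0.05 when GC-corrected. These transcripts differ in GC content, 45.4% for Tet2 and 53.4% for Tet3. The Tet2 to Tet1 change was 0.21 (0.03 to 0.39), and 0.27 when GC-corrected.

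**Figure D3:**
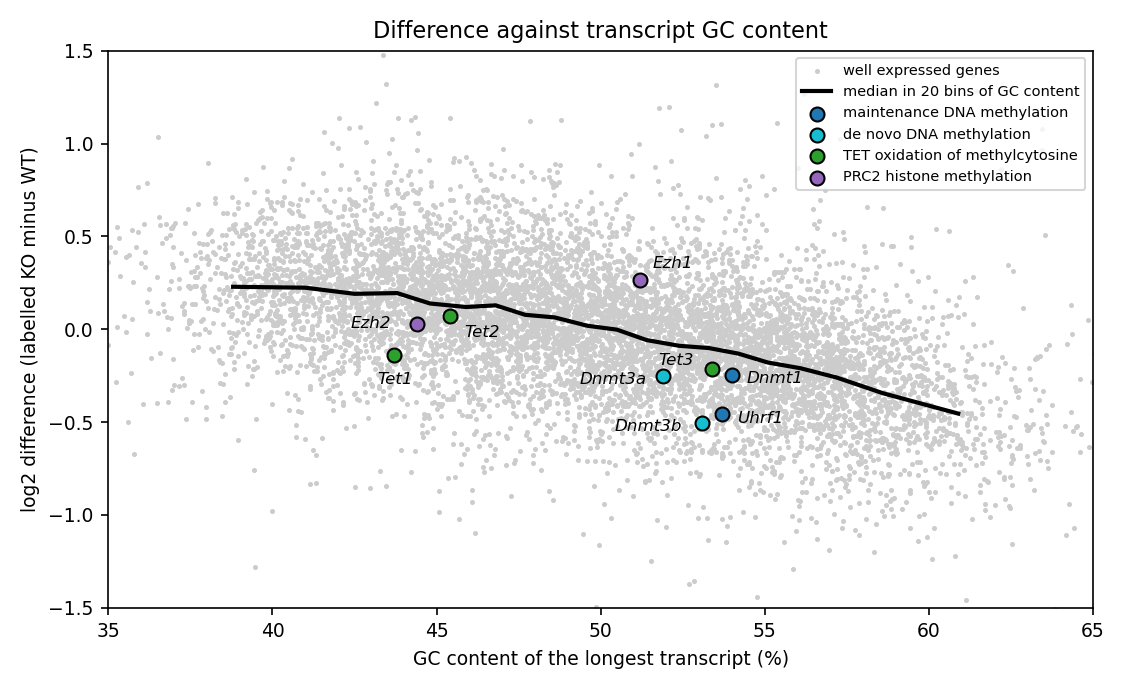
Log2 difference (library labelled Chi3l1 KO Th1 minus WT Th1) against GC content of the longest transcript for well expressed genes (grey), with the median in 20 bins of GC content (black line) and the 9 genes coloured by role. Axes leave out 55 of 8579 genes. The line runs from 0.23 at 38.8% GC to -0.45 at 60.9%, and Ezh1 is the one gene of the 9 above it.

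Of the PRC2 enzymes, Ezh1 was higher in the labelled KO library and Ezh2 had much the same value in both. Ezh1 (chr11:101191115-101226463, minus strand), the form known for resting cells, was at 10.15 in WT and 10.41 in the labelled KO library, from 1174 and 1412 reads. Its difference of 0.26 (0.15 to 0.38) is a normalized count 20% higher, the highest of the 9, with 20.8% of well expressed genes as high. It was 0.31 when GC-corrected. Ezh2 (chr6:47530139-47595341, minus strand), the form of dividing cells, was at 11.74 and 11.76, from 3523 and 3599 reads. Its difference of 0.03 (-0.04 to 0.10) included 0 and was -0.13 when GC-corrected, so no direction can be given for it. Ezh2 remained the main form, with 81.9% of the summed Ezh level per kb in WT and 79.4% in the labelled KO library. The Ezh2 to Ezh1 ratio of normalized counts was 3 in WT and 2.55 in the labelled KO library, a change of -0.23 in log2 (-0.36 to -0.11) and -0.45 when GC-corrected.

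**Figure D4:**
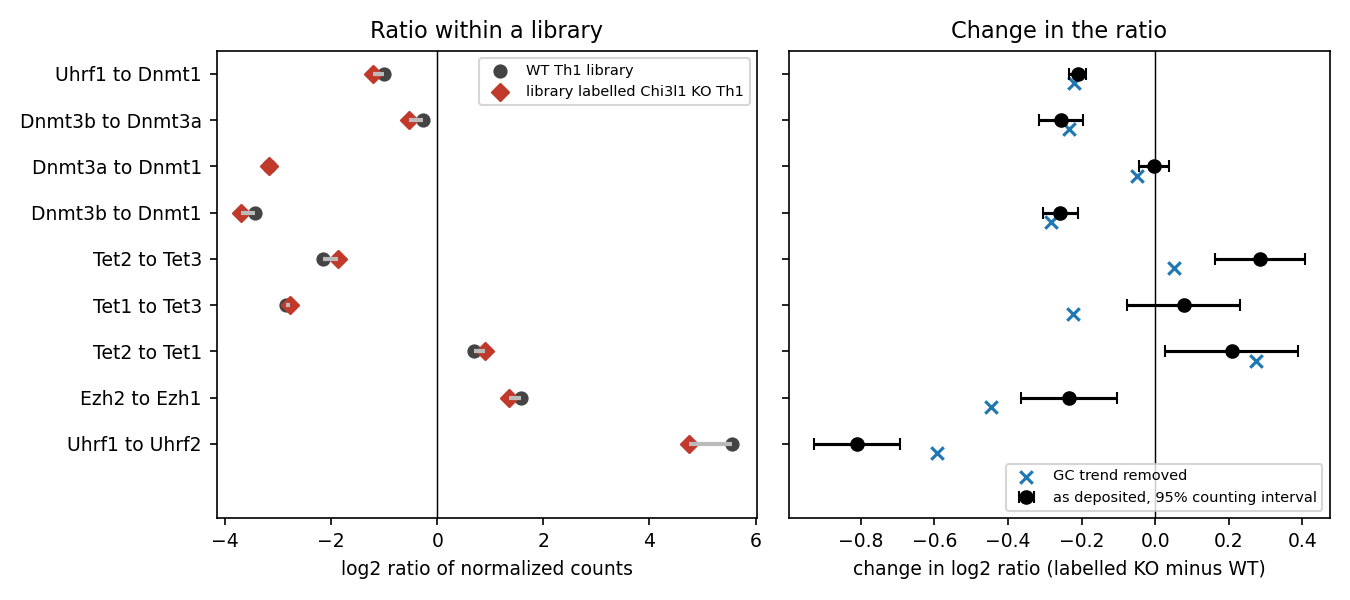
Left, log2 ratio of normalized counts of pairs of genes within the WT Th1 library (dark circles) and the library labelled Chi3l1 KO Th1 (red diamonds). Right, the change in each ratio with its normal-approximation 95% counting interval (black) and when GC-corrected (blue crosses); Uhrf1 to Uhrf2 changed by -0.81 and Dnmt3a to Dnmt1 by -0.002.

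The cofactors of the Dnmt genes did not share their lower values. Of the 9 listed DNA methylation partners, 7 were well expressed, of which 6 were higher and 1 lower, with a median of 0.32 (0.11 when GC-corrected). Pcna, the replication clamp that binds Dnmt1, was at 12.81 and 13.19 (difference 0.38). Hells, a chromatin remodeler needed for normal methylation, was at 9.54 and 9.87, and Cdca7, which recruits Hells, at 12.04 and 12.13. Dmap1, a Dnmt1-associated protein, was at 8.97 and 9.30, and Usp7, a deubiquitylase that binds Dnmt1 and Uhrf1, at 12.80 and 12.85. Trim28, the KRAB zinc finger corepressor, was the one lower at 14.87 and 14.41 (difference -0.45, and -0.06 when GC-corrected). The imprint-keeping factor Zfp57 had 14 and 9 reads. Dnmt3l, the catalytically inactive cofactor of Dnmt3a and Dnmt3b in germ cells, had 0 reads in WT and 17 in the labelled KO library, at least 5.65-fold higher against a floor of 3 reads in the WT library, and it was the 1 gene of this list past 2-fold.

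Demethylation partners followed no common direction. Of 17 listed, 10 were well expressed, 7 higher and 3 lower, with a median of 0.10. Tdg, the glycosylase that cuts out the oxidised bases made by Tet proteins, was the most abundant at 13.11 and 13.36. Gadd45b, a stress-induced factor linked to demethylation, was at 8.66 and 9.40, and the repair scaffold Xrcc1 at 12.01 and 11.25 (differences 0.75 and -0.76). None was past 2-fold. The methyl-CpG readers had a median of 0.03, with 4 of 7 well expressed members higher, Mbd2 the most abundant at 12.40 and 12.36, and Zbtb33 (0.44) and Zbtb4 (-0.59) at the ends.

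PRC2's other subunits were split. All 9 were well expressed, 5 higher and 4 lower, with a median of 0.03 (-0.01 when GC-corrected), and none was past 2-fold. The core subunits Eed (11.22 and 11.71, difference 0.48) and Suz12 (11.53 and 11.94, difference 0.40) were higher. They were 0.41 and 0.19 when GC-corrected, while Ezh2, with which they form the core, was at 0.03 and -0.13. The histone-binding subunits were Rbbp4 at 15.30 and 15.10 and Rbbp7 at 12.68 and 12.89. Among accessory subunits, Phf1 was lower at 12.06 and 11.42 (difference -0.64, and -0.30 when GC-corrected). Aebp2 was at 13.18 and 13.41, Jarid2 at 14.15 and 14.07, Mtf2 at 10.97 and 11.00, and Phf19 at 10.69 and 10.55.

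PRC1, the complex that binds the mark PRC2 makes, held more lower than higher members. Of 18 well expressed subunits 13 were lower and 5 higher, 7 of them with a difference of -0.32 or lower (19.6% of well expressed genes were), with a median of -0.19 (-0.29 when GC-corrected, with 16 lower, and -0.02 under scaling to the summed value, where well expressed genes had a median of 0.16). None was past 2-fold. Cbx6, a reader of methylated lysine 27, was at 11.73 and 10.87 (difference -0.86). Phc2, the most abundant subunit, was at 14.88 and 14.15, and Pcgf5 was the highest in difference at 0.25. Of the enzymes that remove the mark, Kdm6b was at 13.80 and 13.37 (difference -0.43, and -0.04 when GC-corrected) and Kdm6a at 10.62 and 10.77.

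Enzymes of the other repressive and gene-body marks stayed close to 0. Of 10 well expressed H3K9 and H3K36 methyltransferases 9 were higher, none by 0.32 or more, with a median of 0.06. When GC-corrected, 5 were higher and 3 lower of the 8 with a transcript, with a median of 0.03. Ehmt2 (G9a), the most abundant, was the one lower as deposited at 14.23 and 13.91 (difference -0.32, and 0.13 when GC-corrected), and Suv39h2 had the highest difference at 0.27. The enzymes that supply the methyl donor S-adenosylmethionine or set the oxoglutarate that Tet proteins need leaned higher. Of 15 well expressed, 12 were higher and 3 lower with a median of 0.20, 0.17 when GC-corrected. Mthfd2, a mitochondrial folate enzyme induced in activated T cells, was at 12.36 and 12.99, the oxoglutarate dehydrogenase subunit Ogdh was the most abundant at 16.02 and 16.17, and Ahcy, which clears S-adenosylhomocysteine, had the lowest difference among the 15 (-0.26) at 14.91 and 14.66. D2hgdh, which breaks down D-2-hydroxyglutarate, an inhibitor of Tet enzymes, was not among the 15 but was past 2-fold. It had 513 reads in WT and 204 in the labelled KO library, a difference of -1.33 (-1.57 to -1.10) and -1.23 when GC-corrected.

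Since Dnmt1, Uhrf1 and Ezh2 are S phase genes, 20 other genes of that phase or of dividing cells in general were set beside them. Of these 13 were lower and 7 higher with a median of -0.12, which was 0.01 under quantile normalization and 0.05 under scaling to the summed value, where well expressed genes had medians of 0.02 and 0.16. When GC-corrected the median was -0.11, with 16 lower and 4 higher. Mcm6, a subunit of the replicative helicase, was at 13.91 and 13.01 (difference -0.90), and Cdc45, which joins that helicase, at 12.40 and 12.78 (difference 0.37). Rrm2, the ribonucleotide reductase subunit, was the most abundant at 14.47 and 14.25. None was past 2-fold. The part of S phase in the lower values of Dnmt1 and Uhrf1 was not tested.

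**Figure D5:**
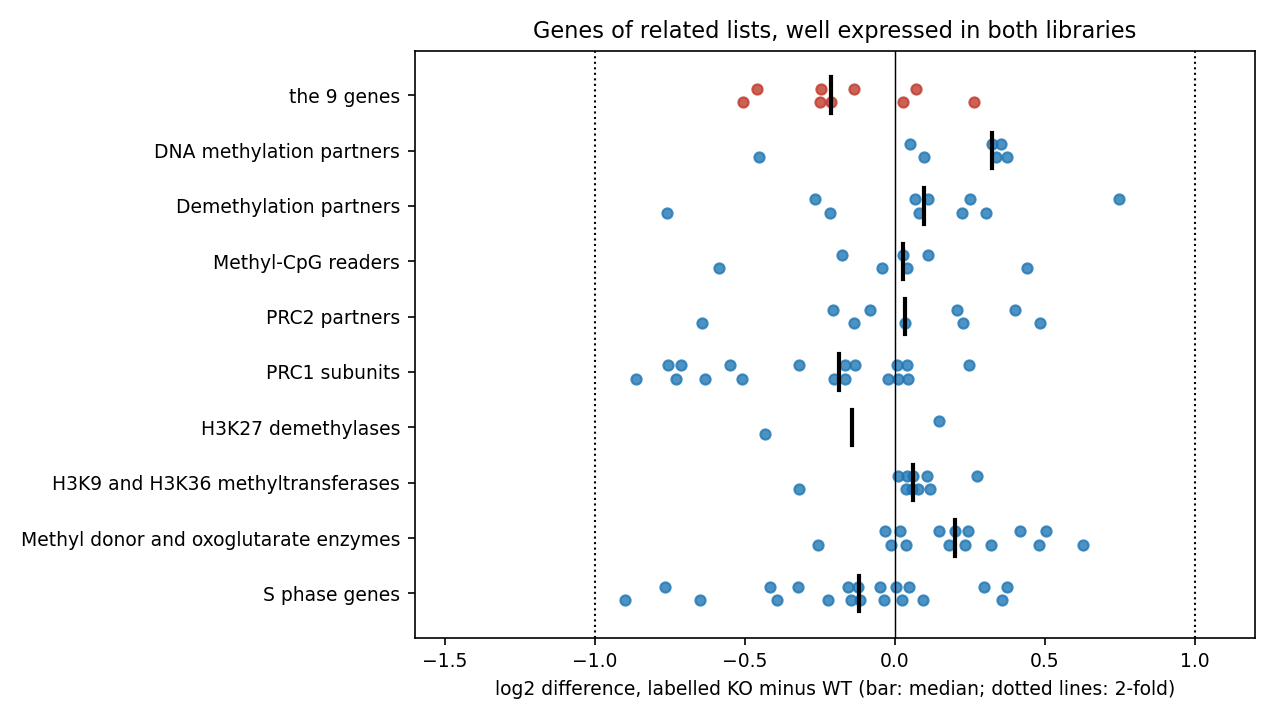
Log2 differences (library labelled Chi3l1 KO Th1 minus WT Th1) of the 9 genes (red) and of well expressed genes of 9 related lists (blue), each dot 1 gene, with the list median as a black bar and 2-fold as dotted lines. Medians run from -0.21 for the 9 genes to 0.32 for DNA methylation partners, and no dot lies past 2-fold.

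Transcripts that overlap the 9 genes were also read. Dnmt3aos, an antisense RNA inside Dnmt3a (chr12:3859293-3862244, minus strand), had 462 reads in WT and 192 in the labelled KO library. Its difference was -1.26 (-1.52 to -1.02), -1.17 when GC-corrected and -1.10 under scaling to the summed value, beside -0.25 for Dnmt3a. Of its 1385 exon bases, 133 lie in exons of Dnmt3a, and whether the authors' counting used the strand is not given in the sources used here, so reads there cannot be assigned to either strand. B230319C09Rik, on the strand opposite Tet3, had 15 reads in WT and 0 in the labelled KO library, and none of its exon bases lie in Tet3 exons. Both were singled out after their values were seen. The microRNA genes inside members differed less, Mir7081 in Dnmt1 with 179 and 151 reads (difference -0.25) and Mir6374 in Tet3 with 18 and 20 (difference 0.14). Each lies on the same strand as its host gene, so these reads cannot be told apart from reads of the host transcript. They are not a measure of mature microRNA.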

How the data were processed

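RNA of 1 WT Th1 and 1 Chi3l1 KO Th1 sample was sequenced. The authors made libraries from polyadenylated RNA with a SENSE mRNA-Seq kit, mapped reads with TopHat and counted unique and multiple alignments for edgeR, so near-identical genes can share reads. A global normalization is also described. The submitters' processing notes name mm10. The deposited values, 1 per gene symbol, were taken to be log2 of normalized count + 1, since 99.9% (WT) and 99.8% (KO) of low values are within 0.1 of whole multiples of a step, 0.968 and 0.966, the worth of 1 read. Reads rebuilt with it gave exact binomial (Clopper-Pearson) 95% intervals of differences, and floors of 3 reads, that cover counting error only. Summed reads were 70711509 and 63056678.

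The difference is the deposited KO value minus the WT value, and a call is a fixed 2-fold, with no test since each group has 1 sample. Lengths, GC content and positions came from GENCODE M21 (GRCm38), which matched 96% of detected symbols and all 9 genes. The 9 genes, the 13 lists (185 genes) and the GC correction were chosen with earlier results of these data known. Named genes are the 9 and both partner lists in full. Of other lists they are the genes past 2-fold that reach a log2 value of 6 and the gene with the highest log2 value, called the most abundant. The largest difference each way among genes well expressed (8 or more) in both libraries was also named. Alternatives were other scalings, folds and floors, a pseudocount of 0.1 and coding length. Some list results are not reported here. Scripts were tested on simulated data. Software was scipy 1.17.1, pandas 2.3.3, numpy 2.4.6 and matplotlib 3.10.9 under Python 3.11.15.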

Additional observations from a re-analysis of the deposited data

How the results depend on the processing

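The median difference of the 9 genes, -0.214 as deposited, was -0.146 under quantile normalization, -0.098 under scaling to Actb, -0.046 under scaling to the summed value and -0.134 with the GC trend removed. At a log2 difference of 0.32 in size 2 of the 9 were called, against 0 at 2-fold. Over all genes the 1147 higher calls became 2345 at 1.5-fold, 4066 at 0.32, 41 among genes not under a log2 value of 8 in either library and 264 among those not under 4, and the 1418 lower calls became 2795, 4507, 66 and 318. Over the 13 lists the 12 higher calls became 21, 39 and, at the floor of 8, 1, and the 9 lower calls 26, 33 and 0. Per coding length 5 of the 9 genes changed place in WT and 3 in the labelled KO library. The changes with fold, floor and length follow from those settings, and the cause of the others was not tested. Tet1 turned to 0.03 under scaling to the summed value, where well expressed genes had a median of 0.16. Tet2 and Ezh2 turned to -0.06 and -0.13 with the GC trend removed. Median-ratio scaling and the pseudocount of 0.1 turned none of the 9. No paired analysis was possible because each group has 1 sample. Depth limits Tet1, Tet2 and Ezh2, whose counting intervals include 0.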

Other observations

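Genes that these marks are known to keep silent were mostly unread in both libraries. Of 18 germline genes silenced by DNA methylation, 14 were at 0 in both, and the other 4 had reads in the library labelled Chi3l1 KO Th1 alone. These were Hormad1 with 14 reads, Ddx4 with 11, and Sycp3 and Slc25a31 with 2 each, named after their values were seen. The 2 reads of Sycp3 and of Slc25a31 are under the floor of 3 reads and bound no fold. By their deposited values all 4 were past 2-fold higher, beside 7.38% of all genes that reached a log2 value of 1 in either library. A gene at 0 in WT is past 2-fold once it reaches that value, so this count was fixed by the filter. Dnmt3l, also a germ cell gene, had 17 reads there and 0 in WT. Of 21 Polycomb-silenced genes, 11 were at 0 in both libraries, and 2 of the 8 that reached a log2 value of 1 in either library were past 2-fold higher by their deposited values, beside 7.38% of all such genes. None of the 21 was well expressed, while that share takes in 8886 well expressed genes, of which 1.2% were past 2-fold in either direction. The share among weakly read genes is therefore higher. The 2 were Cdkn2a, named after its value was seen, and Pax6. Cdkn2a had 0 reads in WT and 5 in the labelled KO library, which against a floor of 3 reads bounds the fold at only 1.66. Pax6 had 23 reads in WT and 95 in the labelled KO library, and Pax5, a B cell factor, had 95 and 177, beside B cell marker sums of 587 and 1247. Whether B cells account for the Pax5 reads was not tested.

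Among 20 imprinted genes, of which 16 reached a log2 value of 1 in either library, 1 was past 2-fold higher and 5 lower, beside 7.38% and 9.12% of all such genes. Those shares take in 8886 well expressed genes, of which 1.2% were past 2-fold in either direction. Only 1 of the imprinted genes was well expressed. The shares among weakly read genes are therefore higher, and these counts cannot be read as an excess. The 5 lower genes, named after their values were seen, had few reads: Igf2 45 in WT and 5 in the labelled KO library, Cdkn1c 31 and 7, Peg12 13 and 4, Usp29 5 and 0, and Meg3 3 and 1. Against a floor of 3 reads the Usp29 value bounds the fold at only 1.67. Mest had 176 reads in WT and 397 in the labelled KO library, and Igf2r, the most abundant, differed by 0.11. Of 12 helper T cell loci, 11 reached a log2 value of 1 in either library and 6 were well expressed. Beside the same 7.38% and 9.12%, which are low for weakly read genes, 4 were past 2-fold higher and none lower. Besides Ifng these were Il17f with 3 and 13 reads, Il4 with 1 and 9, and Il5 with 0 and 3, which is at the floor of 3 reads and bounds no fold, also named after their values were seen. Ifng differed by 1.32 (1.13 with the GC trend removed), Tbx21, the most abundant, by -0.27 (0.11 with the GC trend removed, the opposite sign) and Gata3 by -0.64 (-0.66), while Il17a was at 0 in both libraries. No methylation was measured, so these values do not show the state of the marks.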
